A study of Homo sapiens with 8 samples.

Results

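ES-2 and MV-3, a pair of human tumor cell lines that grow with a mesenchymal-like shape, were compared with Huh-7 and A-549, a pair derived from epithelial tumors of endodermal organs, to describe the mature miRNAs that divide the 4 lines along this border. ES-2 was derived from ovarian cancer, MV-3 from melanoma, Huh-7 from hepatocellular carcinoma and A-549 from lung adenocarcinoma. All cells were parental and untreated and were harvested 48 h after seeding. Small RNA-seq gave 2 replicate libraries per line, hence 4 libraries per pair and 8 in all. The grouping by shape and tissue was chosen for this comparison and is not written in the sample labels, which name only the line and its tumor. Each pair holds only 2 lines of different tumor origin, so that a property of the pair cannot be told apart from properties of its lines.

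A miRNA was counted as separating the pairs when the lowest of the 4 libraries of the higher pair lay above the highest of the 4 libraries of the lower pair. Levels are given as normalised CPM, which are counts per 1000000 miRNA reads after the authors' scaling of each library. Of 2588 miRNA names, 1327 had a read in any library, and 139 of these separated the pairs. ES-2 and MV-3 were higher for 69 of them, and Huh-7 and A-549 for 70. Of the 528 miRNAs that passed a filter on low counts, 124 separated (23.5%), 59 with higher levels in ES-2 and MV-3 (11.2%) and 65 with higher levels in Huh-7 and A-549 (12.3%). The other 15 had too few reads to be tested. The gap of a separating miRNA is the ratio of the lowest library of the higher pair to the highest library of the lower pair, with the latter set to 3 reads where it held fewer. For 18 of the 139 this ratio was below 1, so that their separation rested on a few reads. At least 100 normalised CPM in every library of the higher pair were found for 56, of which 27 were higher in ES-2 and MV-3 and 29 in Huh-7 and A-549, and these are called abundant.

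The contrast of the pair means was tested with limma on log2(normalised CPM + 1), with 1 term per line and the spread between replicate libraries as error. At an adjusted p below 0.01 (limma, Benjamini-Hochberg), 286 of 528 miRNAs differed (54.2%), 112 higher (21.2%) and 174 lower (33.0%) in ES-2 and MV-3. edgeR's quasi-likelihood test on reads recovered from the table called 220 (41.7%). A mean over a pair can be carried by 1 of its lines, and 179 of the 286 did not separate the pairs. Differences in each of the 4 cross-line comparisons, all in the same direction, were called for 50 miRNAs (9.47%), 26 higher (4.92%) and 24 lower (4.55%) in ES-2 and MV-3, and each of the 50 separated the pairs. Among the 124 tested separating miRNAs, 107 were called in the pair contrast. They were chosen by the same values, so the test is no independent evidence for them, and their fold changes are given with the standard error (SE) but without a p. The p-values concern these 4 lines. With line means as the units, 2 against 2, limma called 0 miRNAs (0.0%), 40 had an unadjusted p below 0.05, and the lowest adjusted p was 0.0243. At an adjusted p below 0.05, these line means gave miR-199a-3p, miR-199b-3p, miR-199a-5p, miR-584-5p, miR-192-5p, miR-194-5p and miR-200b-3p. Of these 7, miR-199a-3p and miR-199b-3p are identical in sequence. Each of the 7 separated the pairs, as did 39 of the 40 with an unadjusted p below 0.05. Separation and line means rest on the same values, so this test is no independent evidence for them either. With the line as a random block, limma called 7 miRNAs at an adjusted p below 0.01 (1.33%).

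Libraries held 1173902 to 2670030 reads on mature miRNAs. The scaling factors of the libraries (TMM, the trimmed mean of M values) ranged from 0.593 in A-549 to 1.70 in Huh-7, and 3 reads corresponded to 0.845 to 2.45 normalised CPM. Both extremes fell on lines of the same pair, and the separation of modest differences depended on the scaling: 132 of the 139 separated when RLE factors (relative log expression, as used by DESeq2) were applied, 91 without any factor, and 88 under each of the 3 scalings. Of the 56 abundant miRNAs, 36 separated under each scaling, 21 of 27 higher in ES-2 and MV-3 and 15 of 29 higher in Huh-7 and A-549. Beside each miRNA named below it is stated where its separation was lost.

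MiRNAs are short RNAs that guide Argonaute proteins to mRNAs, which are then repressed or degraded. Pairing of the seed, bases 2 to 8 of the miRNA, to the mRNA largely sets which targets are bound, so that miRNAs with a shared seed have overlapping targets. A hairpin precursor can yield a mature miRNA from each of its arms (5p and 3p), and neighbouring hairpins are often cut from the same primary transcript. Several families are known for their link to cell state. The miR-200 family represses the transcription factors ZEB1 and ZEB2 and is a hallmark of epithelial cells, whereas miR-199 and miR-214 are transcribed with the antisense gene DNM3OS in mesenchymal tissue, and miR-192 and miR-194 are abundant in liver and gut epithelium.

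The mature sequences on which the comparison turned are shown from RefSeq (GRCh38.p14) for 28 miRNAs, of which 27 separated and miR-141-3p, shown as a family member, did not. Of the 139 separating miRNAs, 130 had a RefSeq sequence. Capitals mark the seed. The sequences of the miRNAs that were higher in ES-2 and MV-3 come first.
miR-100-5p: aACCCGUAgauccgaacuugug
miR-125b-5p: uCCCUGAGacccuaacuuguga
let-7a-5p: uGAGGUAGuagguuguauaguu
let-7d-5p: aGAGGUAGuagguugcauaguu
miR-221-3p: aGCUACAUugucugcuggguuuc
miR-222-3p: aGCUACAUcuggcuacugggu
miR-29a-3p: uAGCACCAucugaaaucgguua
miR-29b-3p: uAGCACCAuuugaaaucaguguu
miR-199a-5p: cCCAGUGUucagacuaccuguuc
miR-199a-3p: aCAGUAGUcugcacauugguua
miR-199b-3p: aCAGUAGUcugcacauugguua
miR-155-5p: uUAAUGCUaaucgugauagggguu
miR-584-5p: uUAUGGUUugccugggacugag
miR-152-3p: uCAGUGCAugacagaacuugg
miR-181b-3p: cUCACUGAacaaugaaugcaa
The next sequences belong to miRNAs that were higher in Huh-7 and A-549, with miR-141-3p at the end.
miR-192-5p: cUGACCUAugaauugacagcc
miR-215-5p: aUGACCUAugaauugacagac
miR-194-5p: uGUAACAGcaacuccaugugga
miR-200b-3p: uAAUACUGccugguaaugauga
miR-200c-3p: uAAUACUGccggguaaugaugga
miR-429: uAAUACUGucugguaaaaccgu
miR-200a-3p: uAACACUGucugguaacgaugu
miR-34a-5p: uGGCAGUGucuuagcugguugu
miR-335-5p: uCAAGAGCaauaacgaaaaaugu
miR-126-3p: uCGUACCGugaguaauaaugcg
miR-148a-3p: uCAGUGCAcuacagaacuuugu
miR-181b-5p: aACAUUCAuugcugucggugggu
miR-141-3p: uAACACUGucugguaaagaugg

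Seeds were compared among the separating miRNAs with a hairpin position assigned here, which left out miR-155-5p and both arms of miR-200a, for example. Within this set, 29 miRNAs shared seeds in 13 groups, and in 11 groups every member was higher in the same pair. miR-221-3p and miR-222-3p share GCUACAU, miR-29a-3p and miR-29b-3p share AGCACCA, and let-7a-5p and let-7d-5p share GAGGUAG, all on the side of ES-2 and MV-3. On the side of Huh-7 and A-549, miR-192-5p and miR-215-5p share UGACCUA, and miR-200b-3p, miR-200c-3p and miR-429 share AAUACUG. The 2 groups with members on both sides were CAGUGCA, held by miR-148a-3p and miR-152-3p, and CAGUAGU, held by both miR-199-3p names and the scarce miR-3129-5p. The 3p sequences of miR-199a and miR-199b are identical, so their reads cannot be assigned to a hairpin and the split between the names is uncertain.

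**Figure D1:**
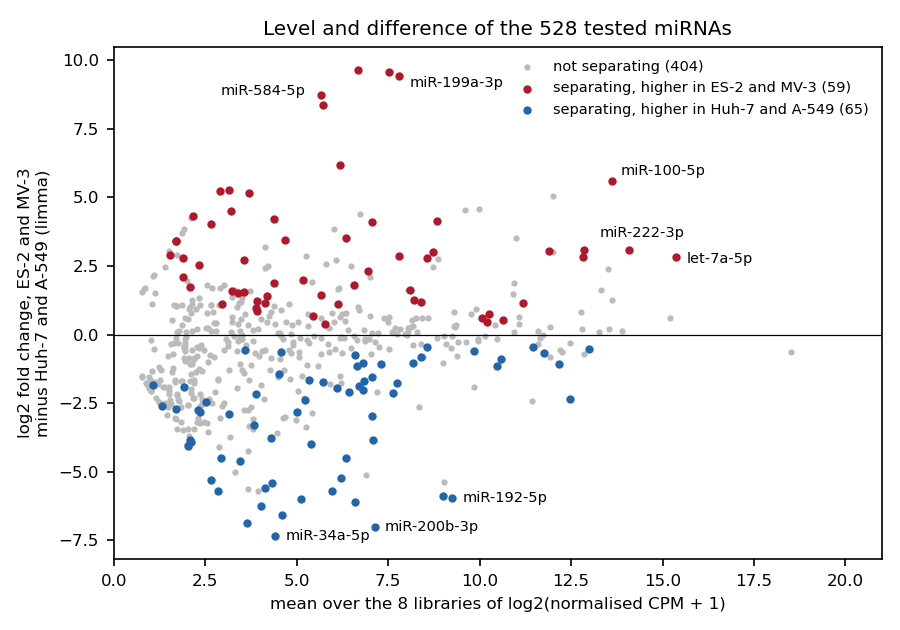
Each point is 1 of the 528 tested miRNAs, with its mean log2(normalised CPM + 1) over 8 libraries on the x axis and the limma log2 fold change of ES-2 and MV-3 minus Huh-7 and A-549 on the y axis. The 59 red points (higher in ES-2 and MV-3) and 65 blue points (higher in Huh-7 and A-549) separate the pairs. They reach from low to high levels, and many grey points with a large fold change do not separate.

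The labels and the grouping were checked against markers. The 5 members of the miR-200 family, taken as epithelial markers, summed to 29.6 to 60.4 normalised CPM in the ES-2 and MV-3 libraries and to 1605 to 2339 in the Huh-7 and A-549 libraries. Separation was found for 4 of the 5 (12.3% of all tested miRNAs separated in this direction). miR-141-3p, the remaining member, had at most 5.65 normalised CPM in any library. Of the 6 mesenchymal markers, miR-199a-5p, miR-199a-3p and miR-199b-3p separated with higher levels in ES-2 and MV-3 (11.2% of all tested miRNAs did). miR-199a-3p and miR-199b-3p are identical in sequence, so they do not count as separate markers. miR-143-3p and miR-145-5p were called lower in ES-2 and MV-3 (33.0% of all tested miRNAs were), and miR-214-3p did not pass the test. Mesenchymal markers other than miR-199 therefore did not follow the grouping. Of 3 hepatocyte markers, miR-122-5p was at 81224 and 86217 normalised CPM in Huh-7 and at most 39.2 elsewhere, miR-885-5p was at 3200.0 and 3161 in Huh-7 and at most 2.74 elsewhere, and miR-192-5p separated the pairs. Of 4 melanocyte markers, miR-211-5p had no read in either MV-3 library and the 4 together summed to at most 1.48 there, so the melanoma label of MV-3 was not visible in them. The 4 blood cell markers summed to 554 and 503 in ES-2 and to at most 3.27 in the other 6 libraries, carried by miR-142-3p and miR-142-5p, while miR-223-3p and miR-451a stayed at or below 1.64 in every library. Muscle markers summed to at most 8.996. The neural marker miR-9-5p ranged from 6.48 in Huh-7 to 764 in A-549, whereas miR-124-3p had at most 0.818. The part of these differences in the results was not tested, and in bulk RNA a smaller share of cells and less RNA per cell cannot be told apart.

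In ES-2 and MV-3, the 69 miRNAs that were higher there took a large part of all miRNA reads. Their share was 38.2% and 39.0% in ES-2 and 30.7% and 30.2% in MV-3, compared with 7.84% and 8.44% in A-549 and 2.50% and 2.52% in Huh-7. A few members carried much of it. In ES-2 replicate 1, let-7a-5p held 11.9% of reads, miR-100-5p 11.2% and miR-222-3p 5.54%. let-7a-5p, which held 4.49% in A-549 replicate 1, barely separated and lost the order with RLE factors. The 70 miRNAs that were higher in Huh-7 and A-549 held less. They took 14.1% and 13.8% of reads in Huh-7, 4.17% and 4.08% in A-549, 1.96% and 1.97% in ES-2, and 2.88% and 3.10% in MV-3. The share in A-549 was thus closer to that in MV-3 than to that in Huh-7. Shares are taken of all reads and carry no TMM factor.

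**Figure D2:**
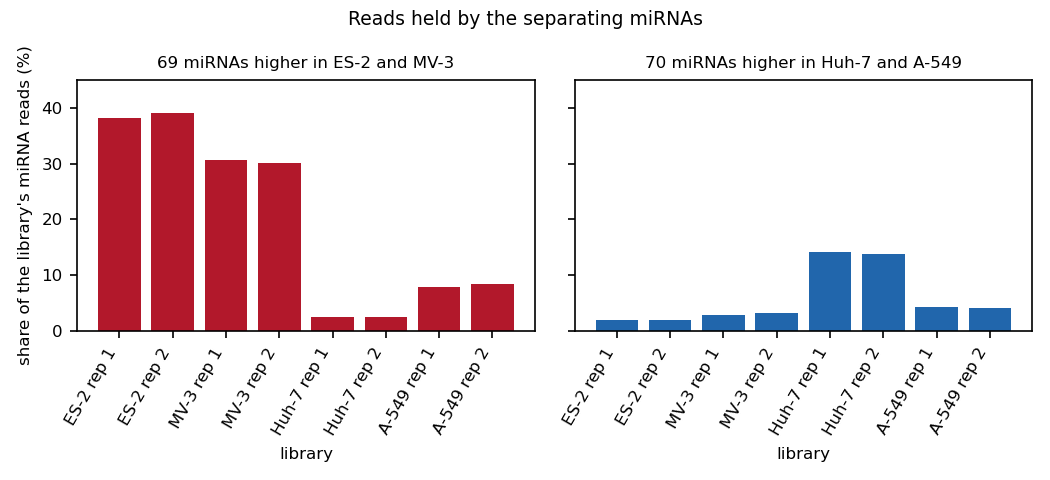
Bars give the percentage of the miRNA reads of each library held by the 69 miRNAs higher in ES-2 and MV-3 (left) and by the 70 higher in Huh-7 and A-549 (right), with 1 bar per library and no error bars. The left set holds 30.2% to 39.0% of reads in ES-2 and MV-3 and at most 8.44% in the other lines.

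The miR-199 hairpins gave the widest separation. These hairpins lie on chromosome 1 (172144535 to 172144644, minus strand, in an exon of DNM3OS), chromosome 19 (10817426 to 10817496, minus strand) and chromosome 9 (128244721 to 128244830, minus strand) of GRCh38. miR-199a-3p had 4664 and 4799 normalised CPM in ES-2 and 7621 and 6868 in MV-3, compared with 11.1 and 6.54 in A-549 and 7.32 and 6.15 in Huh-7. miR-199a-5p had 761 and 801 normalised CPM in ES-2 and 1073 and 1198 in MV-3, compared with 3.69 and 0.818 in A-549 and 1.41 and 2.39 in Huh-7. miR-199b-3p had 2289 and 2362 normalised CPM in ES-2 and 3671 and 3381 in MV-3, compared with 6.16 and 1.64 in A-549 and 1.41 and 2.73 in Huh-7. For all 3, both ES-2 and MV-3 were high, MV-3 above ES-2, and Huh-7 and A-549 held between 1 and 26 reads per library. The gaps were 421-fold for miR-199a-3p, 206-fold for miR-199a-5p and 372-fold for miR-199b-3p, with a log2 difference of 9.41 ± 0.16 (SE), 8.35 ± 0.32 and 9.63 ± 0.33. miR-214-3p, whose hairpin lies on the same strand within DNM3OS, did not follow them, with 0 and 1.03 normalised CPM in ES-2 and 25.2 and 41.7 in MV-3. Neither did miR-199b-5p, with 46.5 and 77.0 in ES-2 and no read in MV-3.

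miR-155-5p, which is made from the host RNA MIR155HG and is best known from activated lymphocytes and macrophages, showed the next pattern. miR-155-5p had 9019 and 9479.8 normalised CPM in ES-2 and 2461 and 3221 in MV-3, compared with 38.2 and 38.4 in A-549 and 0 and 0.342 in Huh-7. It was nearly absent from Huh-7, with 0 reads and 1 read, low in A-549 and high in both other lines, with ES-2 above MV-3. The gap was 64.0-fold, with a log2 difference of 9.56 ± 0.13 (SE). The part of other cell types in this difference was not tested. Among blood cell markers, miR-142-3p was at 376 and 337 in ES-2 and had no read in MV-3. miR-146a-5p, another miRNA of inflammatory signalling, did not separate and was highest in Huh-7, with 4323 and 4007. miR-584-5p, from an intron of SH3TC2 on chromosome 5 (149062313 to 149062409, minus strand), was similar in size of the difference. miR-584-5p had 1259.9 and 1376 normalised CPM in ES-2 and 856 and 762 in MV-3, compared with 1.23 and 6.54 in A-549 and 0.282 and 0.683 in Huh-7. It had at most 8 reads in each Huh-7 and A-549 library, a gap of 116-fold and a log2 difference of 8.72 ± 0.38 (SE).

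The most abundant separating miRNAs were in part neighbours in the genome. miR-100 and let-7a-2 (chromosome 11, 122146522 to 122152308) and miR-125b-1 (122099757 to 122099844) lie in introns of MIR100HG on the minus strand. miR-100-5p and miR-125b-5p belong to families that are old in animals and act in development, as does let-7, which is known to repress RAS, MYC and HMGA2 mRNAs. miR-100-5p had 128779 and 130531 normalised CPM in ES-2 and 65419 and 54893 in MV-3, compared with 14906 and 14608 in A-549 and 244 and 203 in Huh-7. miR-125b-5p had 15286 and 14644 normalised CPM in ES-2 and 8749.5 and 7403 in MV-3, compared with 2224 and 2331 in A-549 and 849 and 717 in Huh-7. Both fell in the order ES-2, MV-3, A-549 and Huh-7, without overlap between any of these lines, except that Huh-7 and A-549 overlapped for miR-125b-5p without a scaling factor. Gaps were 3.68-fold and 3.176-fold, with a log2 difference of 5.601 ± 0.080 (SE) and 3.04 ± 0.078. The passenger arms went the same way. miR-125b-1-3p had 557 and 651 normalised CPM in ES-2 and 583 and 679.9 in MV-3, compared with 83.1 and 63.0 in A-549 and 0 and 0 in Huh-7. miR-100-3p had 91.6 and 85.3 normalised CPM in ES-2 and 62.2 and 69.7 in MV-3, compared with 7.39 and 1.64 in A-549 and 0 and 0 in Huh-7. Both arms had no read in Huh-7. The arm of the second miR-125b hairpin, miR-125b-2-3p, did not separate and was highest in Huh-7 at 129 and 168. The related miR-99a-5p, miR-99b-5p and miR-125a-5p did not separate the pairs either.

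let-7a-5p stood just inside the limit. let-7a-5p had 137879 and 150472 normalised CPM in ES-2 and 87714 and 93415 in MV-3, compared with 73866 and 87030.3 in A-549 and 2987 and 3341 in Huh-7. MV-3 replicate 1 exceeded A-549 replicate 2 only 1.01-fold, and the order was lost with RLE factors, while Huh-7 lay far below the other 3 lines. let-7d-5p, from the cluster on chromosome 9 (94175957 to 94178920, plus strand) that also holds let-7a-1, had a gap of 1.20-fold. let-7d-5p had 2305 and 2412 normalised CPM in ES-2 and 1599 and 1551 in MV-3, compared with 1137 and 1293 in A-549 and 10.1 and 7.51 in Huh-7. Of the 9 members of the let-7-5p list with miR-98-5p, 2 separated with higher levels in ES-2 and MV-3 (11.2% of all tested miRNAs did), 8 were called higher in the pair contrast by limma (21.2% of all tested), and 0 were called in all 4 cross-line comparisons (4.92% of all tested). let-7b-5p, let-7e-5p, let-7f-5p, let-7g-5p and let-7i-5p, and likewise miR-98-5p, were higher in both A-549 libraries than in either MV-3 library with TMM factors, which without a factor held only for let-7b-5p and miR-98-5p. Huh-7 was the lowest line for each of the 6 under each scaling. let-7i-5p, for example, had 8.73 and 20.49 in Huh-7 and 17987 to 37527 in the other 3 lines. let-7e-5p did not pass the test.

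miR-221 and miR-222, neighbours on chromosome X (45746157 to 45747124, minus strand, host RNA MIR222HG) that are known to repress the cell cycle inhibitor p27 and the receptor KIT, separated with each of their 4 mature arms. miR-222-3p had 63999.5 and 67794 normalised CPM in ES-2 and 38796 and 38673 in MV-3, compared with 14138 and 14937 in A-549 and 2527 and 2360.3 in Huh-7. miR-221-3p had 28091 and 29319 normalised CPM in ES-2 and 17780.3 and 14497 in MV-3, compared with 6813 and 6915 in A-549 and 963 and 891 in Huh-7. The order was again ES-2, MV-3, A-549 and Huh-7, and no 2 lines overlapped, except for Huh-7 and A-549 in miR-222-5p without a scaling factor. Gaps ranged from 1.71-fold for miR-221-5p to 3.91-fold for miR-222-5p. miR-222-3p had a log2 difference of 3.08 ± 0.042 (SE) and miR-221-3p a log2 difference of 3.09 ± 0.071 (SE). Each of the 4 arms was called in all 4 cross-line comparisons and separated under each scaling. Of all tested miRNAs, 4.92% were called so and 11.2% separated in this direction.

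miR-29, which represses collagen and other matrix mRNAs, separated with 4 arms of the hairpins miR-29a and miR-29b-1 on chromosome 7 (130876747 to 130877539, minus strand, LINC-PINT). Of these, miR-29b-3p is also encoded by miR-29b-2 on chromosome 1 (207802443 to 207802523, minus strand), so its reads cannot be assigned to a hairpin. In this direction 11.2% of all tested miRNAs separated. miR-29a-3p had 29599 and 28794 normalised CPM in ES-2 and 12974 and 12776 in MV-3, compared with 7101 and 6343 in A-549 and 1182 and 1002 in Huh-7. miR-29b-3p had 441 and 364 normalised CPM in ES-2 and 203 and 177 in MV-3, compared with 69.6 and 59.7 in A-549 and 4.79 and 13.0 in Huh-7. The order of the lines was the same as for miR-222-3p. miR-29c-3p had 30.5 and 35.4 in ES-2 against 31.4 and 33.5 in A-549, so it did not separate. miR-29a-3p had a gap of 1.80-fold and a log2 difference of 2.84 ± 0.066 (SE).

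Further miRNAs of this direction were named after their values were seen. miR-218-5p, encoded in introns of SLIT2 and SLIT3, had 592 and 645 in ES-2 and 1661 and 1506 in MV-3, whereas A-549 had 293 and 308 and Huh-7 59.4 and 78.9. miR-7-5p had 3203 to 3852 in ES-2 and MV-3 against 1223 to 2214 in Huh-7 and A-549, and separated under each scaling. The miR-105 and miR-767 cluster in an intron of GABRA3 (chromosome X, 152392219 to 152394492) had at most 2 reads in each Huh-7 and A-549 library. miR-767-5p reached 47.9 and 15.4 in ES-2 and 102 and 112 in MV-3, and miR-105-5p 20.8 and 24.1 in ES-2 and 74.0 and 106 in MV-3. These miRNAs are known to be silent in most normal tissue outside the testis.

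**Figure D3:**
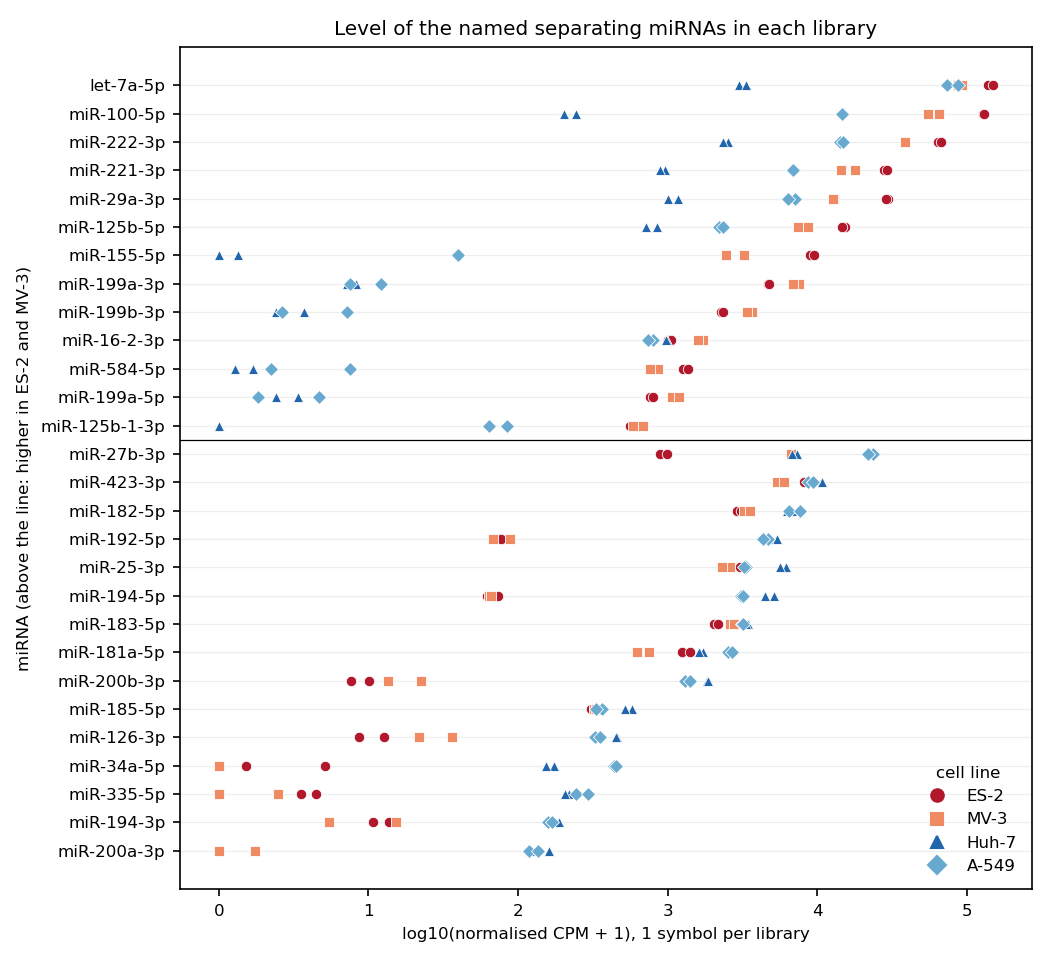
Each row is a separating miRNA named by rule and each symbol 1 library, with log10(normalised CPM + 1) on the x axis and the line as color and shape. Rows above the line are higher in ES-2 (circles) and MV-3 (squares), rows below it in Huh-7 (triangles) and A-549 (diamonds). The pairs lie far apart for the miR-199 rows, miR-192-5p, miR-194-5p and miR-200b-3p, and nearly touch for let-7a-5p, miR-16-2-3p, miR-27b-3p and miR-185-5p.

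Among the miRNAs that were higher in Huh-7 and A-549, the miR-192 and miR-194 group had wide gaps. miR-192 and miR-194-2 lie on chromosome 11 (64891137 to 64891439, minus strand, in an exon of MIR194-2HG), and miR-215 and miR-194-1 on chromosome 1 (220117853 to 220118241, minus strand). These miRNAs are known as targets of hepatocyte nuclear factors and of p53. miR-192-5p had 75.7 and 76.5 normalised CPM in ES-2 and 88.1 and 67.5 in MV-3, compared with 4724 and 4356 in A-549 and 5385 and 4676 in Huh-7. miR-194-5p had 72.9 and 61.1 normalised CPM in ES-2 and 62.9 and 65.3 in MV-3, compared with 3094 and 3201 in A-549 and 5167 and 4489 in Huh-7. The gaps were 49.5-fold and 42.5-fold. The distance between Huh-7 and A-549 depended on the scaling, as the ratio of Huh-7 to A-549 was 1.11 for miR-192-5p and 1.53 for miR-194-5p with TMM factors, and 3.07 and 4.25 without a factor. The ratio of ES-2 to MV-3 was 0.978 and 1.05 with TMM factors, and 0.722 and 0.771 without. The log2 fold changes were -5.94 ± 0.10 and -5.87 ± 0.081 (SE). miR-194-3p had 9.72 and 12.8 normalised CPM in ES-2 and 4.44 and 14.3 in MV-3, compared with 159 and 167 in A-549 and 160.2 and 187 in Huh-7. miR-215-5p had 0 and 2.57 normalised CPM in ES-2 and 1.48 and 3.84 in MV-3, compared with 38.2 and 49.1 in A-549 and 379.8 and 299.9 in Huh-7. miR-215-5p separated as well, but its level in Huh-7 was 7.79 times that in A-549 with TMM factors and 21.6 times without. Of the 6 mature arms of the group, 5 separated, and 12.3% of all tested miRNAs did so in this direction. miR-192-3p, counted among the 5, had too few reads to be tested, with 1 and 2 reads in A-549 and 0 in ES-2 and MV-3. miR-215-3p was read in Huh-7 only, with 20.8 and 11.3. As a sum of library CPM (no scaling factor), ES-2 held 133 ± 5.12 (SD, n = 2) of the group and MV-3 179 ± 2.19, whereas A-549 held 4746 ± 187 and Huh-7 17321 ± 1190.4.

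The miR-200 family is encoded at 2 loci. miR-200b and miR-429 lie on chromosome 1 (1167104 to 1169087, plus strand), with miR-200a between them, and miR-200c and miR-141 on chromosome 12 (6963699 to 6964191, plus strand). miR-200b-3p had 9.02 and 6.68 normalised CPM in ES-2 and 12.6 and 21.4 in MV-3, compared with 1305 and 1403 in A-549 and 1847 and 1859 in Huh-7. miR-200a-3p had 0 and 0 normalised CPM in ES-2 and 0.740 and 0 in MV-3, compared with 118 and 136 in A-549 and 160.5 and 119.9 in Huh-7. miR-429 had 0.694 and 0.514 normalised CPM in ES-2 and 3.70 and 0 in MV-3, compared with 126 and 82.6 in A-549 and 219.6 and 165 in Huh-7. The 3 members of the chromosome 1 locus were high in Huh-7 and A-549, whereas ES-2 and MV-3 held 13 to 39 reads of miR-200b-3p per library and at most 5 of the others. miR-200a-3p had 1 read in MV-3 and none in ES-2, so no fold is given. For miR-200b-3p the gap was 61.0-fold and the log2 fold change -7.001 ± 0.18 (SE). The partner arms miR-200b-5p and miR-200a-5p separated too, with 31.1 to 45.1 and 8.54 to 33.2 in Huh-7 and A-549. The chromosome 12 locus behaved differently. miR-200c-3p had 45.8 and 43.1 normalised CPM in ES-2 and 12.6 and 24.7 in MV-3, compared with 56.0 and 104 in A-549 and 111 and 129 in Huh-7. Its gap was only 1.22-fold, A-549 replicate 1 lay next to ES-2, and the order was lost without a scaling factor. The chromosome 1 members thus separated widely and the chromosome 12 members narrowly or not at all.

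miR-34a-5p, a p53 target that represses cell cycle and survival mRNAs, had at most 6 reads in the ES-2 and MV-3 libraries. miR-34a-5p had 4.17 and 0.514 normalised CPM in ES-2 and 0 and 0 in MV-3, compared with 435 and 452 in A-549 and 174 and 152.3 in Huh-7. Its gap was 36.6-fold. miR-34b-5p, miR-34b-3p and miR-34c-5p, which come from another locus, did not separate, and miR-34c-5p was as high in MV-3 (193.9 and 165) as in A-549 (239 and 154.6). miR-335-5p, from an intron of the imprinted gene MEST, and miR-126-3p, from an intron of EGFL7 and best known from endothelium, separated by 59.3-fold and 9.31-fold. miR-335-5p had 3.47 and 2.57 normalised CPM in ES-2 and 1.48 and 0 in MV-3, compared with 243 and 292 in A-549 and 217 and 206 in Huh-7. miR-126-3p had 7.64 and 11.8 normalised CPM in ES-2 and 20.7 and 35.1 in MV-3, compared with 327 and 352 in A-549 and 456 and 449.8 in Huh-7. The ratio of Huh-7 to A-549 was 0.791 for miR-335-5p and 1.33 for miR-126-3p with TMM factors, and 2.20 and 3.70 without a factor. The partner arms miR-335-3p and miR-126-5p separated in the same direction, although miR-335-3p was at 47.9 and 43.7 in ES-2, far above MV-3 with 0.740 and 0.549.

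Several abundant miRNAs of this side differed only modestly. miR-182-5p had 2899 and 3106 normalised CPM in ES-2 and 3219 and 3536 in MV-3, compared with 6441 and 7658 in A-549 and 6826 and 6259.8 in Huh-7. miR-183-5p had 2037 and 2167 normalised CPM in ES-2 and 2625 and 2773 in MV-3, compared with 3145 and 3173 in A-549 and 3438 and 3356 in Huh-7. miR-96-5p, the third member of this cluster, which is known from sensory organs and from epithelial tumors, separated with a gap of 1.03-fold. Its pair contrast was not called. The order of miR-182-5p, miR-183-5p and miR-181b-5p was lost without scaling factors. miR-181a-5p had 1254 and 1412 normalised CPM in ES-2 and 622 and 749 in MV-3, compared with 2531 and 2708 in A-549 and 1719.5 and 1618 in Huh-7. miR-181b-5p had 1239 and 1221 normalised CPM in ES-2 and 922 and 1194 in MV-3, compared with 2351 and 2276 in A-549 and 1940 and 1891 in Huh-7. Of the 4 members of the miR-181-5p list, 3 separated with higher levels in Huh-7 and A-549, which 12.3% of all tested miRNAs did, and miR-181c-5p did not. miR-27b-3p had 889.9 and 993 normalised CPM in ES-2 and 6738 and 6683 in MV-3, compared with 23684 and 22001 in A-549 and 7299 and 6807 in Huh-7. This miRNA stood just inside the limit, with MV-3 next to Huh-7, a gap of 1.01-fold and loss of the order with RLE factors. miR-423-3p had 8715 to 10804 in Huh-7 and A-549 against 5353 to 8141 in ES-2 and MV-3, and miR-25-3p 3259 to 6150 against 2320 to 3059. Both were separated by a gap of 1.07-fold and lost the order without scaling factors.

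Around the limit, the values were as follows. On the side of ES-2 and MV-3, let-7a-5p and miR-16-2-3p (gap 1.02-fold, lost without scaling factors) lay just inside. miR-1307-3p and miR-30e-3p lay just outside, with the lowest ES-2 or MV-3 library at 0.982 and 0.914 of the highest Huh-7 or A-549 library. On the side of Huh-7 and A-549, miR-185-5p (gap 1.001-fold, lost without scaling factors) and miR-27b-3p lay just inside. miR-23b-3p and miR-423-5p lay just outside, with ratios of 0.998 and 0.982. miR-23b-3p, a neighbour of miR-27b on chromosome 9, missed by MV-3 replicate 1 (3491) against Huh-7 replicate 2 (3485).

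The CAGUGCA seed was held by miRNAs of both directions. miR-148a-3p had 7.64 and 17.5 normalised CPM in ES-2 and 6.66 and 14.3 in MV-3, compared with 41.9 and 33.5 in A-549 and 17559 and 16144 in Huh-7. miR-152-3p had 398 and 343 normalised CPM in ES-2 and 708 and 543 in MV-3, compared with 251 and 267 in A-549 and 99.96 and 81.3 in Huh-7. miR-148a-3p was dominated by Huh-7, and its separation rested on A-549 at 33.5 to 41.9 against at most 17.5 in ES-2 and MV-3. miR-152-3p was higher in ES-2 and MV-3 with a gap of 1.28-fold. miR-148b-3p, with the same family name, did not separate.

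Hairpins and their arms moved together in most cases. Of 53 arm pairs that could be formed here with both arms tested and at least 1 separating, 47 had fold changes of the same sign. Both arms separated in the same direction in 20. The arms of miR-221 and of miR-486, which separated too, were not paired here and are not among the 53. miR-486-3p lost the order without scaling factors. How often the sign was shared over all tested arm pairs was not determined. Only the arms of miR-181b separated in opposite directions: miR-181b-5p was higher in Huh-7 and A-549, whereas miR-181b-3p had at least 14.8 in ES-2 and MV-3 against 6.15 to 12.3 in Huh-7 and A-549. The 3p arm held few reads and lost the order without scaling factors. Fold changes of opposite sign were also found for the arms of miR-16-2, miR-181a-1, miR-182, miR-183 and miR-185. When hairpins with a position assigned here and within 10000 bases on the same strand were joined, 24 clusters held at least 2 separating arms. In 23 of them these arms had the same direction, the exception being miR-181a-1 with miR-181b-1. Several of the 24, such as miR-335, miR-126 and miR-582, held only 1 hairpin, so that the agreement was between its own arms. Names made at more than 1 locus, such as miR-199a-3p and miR-194-5p, were counted at each. Hairpins without an assigned position, such as those of miR-183, miR-501, miR-542 and miR-660, were left out of the clusters. Of their arms, miR-183-5p, miR-501-3p, miR-542-3p and miR-660-5p separated with higher levels in Huh-7 and A-549. Without scaling factors only miR-542-3p among them kept the order. In the intron of CLCN5 on chromosome X (50003148 to 50014683, plus strand), all 11 tested arms with a position assigned here had a log2 fold change below 0. The median over all tested miRNAs was -0.30. Of these 11 arms 5 separated, and 12.3% of all tested miRNAs separated in this direction. Huh-7 was above A-549 for each of the 5, and miR-500a-3p, miR-362-5p and miR-500b-5p lost the order without scaling factors. miR-532-5p is given here after its values were seen. miR-532-5p had 93.7 and 109 normalised CPM in ES-2 and 141.4 and 122 in MV-3, compared with 172 and 195 in A-549 and 898 and 836 in Huh-7. Here Huh-7 was far above A-549, which lay close to MV-3, and the order was lost without scaling factors.

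How far the pairs differed was set against the difference within them. For each abundant separating miRNA, the step between the nearest lines of the pairs was compared with the distance between the lines of a pair, both as log2 of line means + 1. The step was the largest of these distances for 24 of 56, 8 of 27 higher in ES-2 and MV-3 and 16 of 29 higher in Huh-7 and A-549. For the miRNAs higher in ES-2 and MV-3, the median distance was 0.70 between ES-2 and MV-3, 1.72 between Huh-7 and A-549, and 1.04 for the step between pairs. In 25 of these 27, Huh-7 was lower than A-549. The medians for the other direction were 0.43, 0.41 and 0.72, and Huh-7 was the lower line of its pair in 11 of 29. These distances depended on the TMM factors. Without a factor, a comparison made after the data were seen, Huh-7 was the lower line in 16 of 27 and 2 of 29, and the median distance between Huh-7 and A-549 was 1.15 and 1.60. The step was then the largest distance for 13 of 27 and 9 of 29. With RLE factors, Huh-7 was the lower line in 25 of 27 and 17 of 29, and the step was the largest for 7 of 27 and 16 of 29. A gap of 10-fold or more (against the floor of 3 reads for miR-200a-3p) was found for 12 abundant miRNAs, which were miR-199a-3p, miR-199b-3p, miR-199a-5p, miR-584-5p and miR-155-5p on the side of ES-2 and MV-3, and miR-200b-3p, miR-335-5p, miR-200a-3p, miR-192-5p, miR-194-5p, miR-34a-5p and miR-194-3p on the other. Each of the 12 separated under each scaling, and miR-199a-3p and miR-199b-3p among them are identical in sequence.

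**Figure D4:**
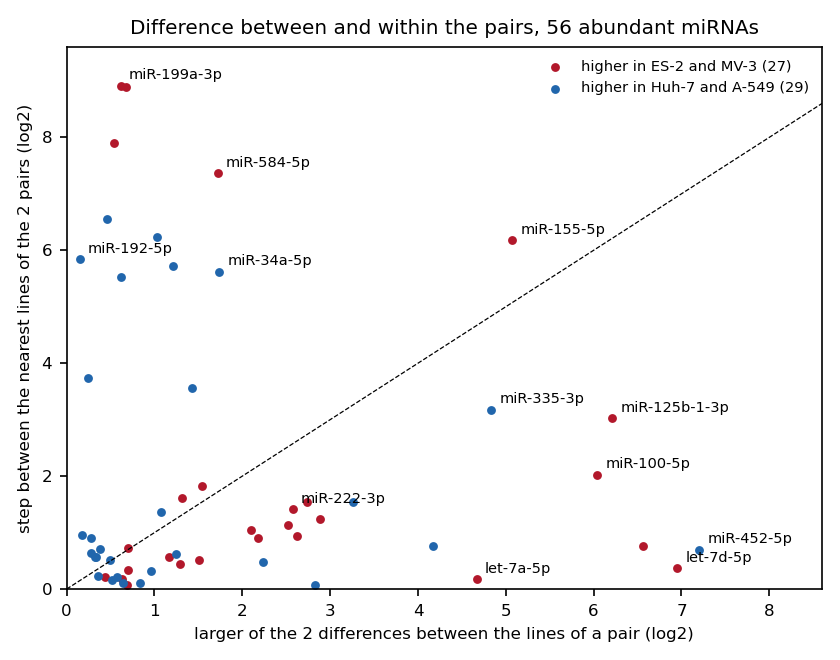
For the 56 abundant separating miRNAs, the y axis gives the step between the nearest lines of the pairs and the x axis the larger of the distances within a pair, both on a log2 scale of line means with TMM factors. Points above the dashed line of equality, such as miR-199a-3p, miR-584-5p and miR-192-5p, differ more between pairs than within. For miR-100-5p and let-7a-5p the distance within a pair is larger.

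Some of the lists held no separating member, beside 23.5% separating among all tested miRNAs, and with so few members per list nothing particular to them is read from this. The lists hold chosen arms only, and other arms of the same hairpins did separate. miR-20a-3p and miR-16-2-3p were higher in ES-2 and MV-3, and miR-16-1-3p, which had too few reads to be tested, in Huh-7 and A-549. Each of these arms lost the order without scaling factors. Of the 8 miRNAs of the miR-17-92 list, 0 separated and 5 were called higher in ES-2 and MV-3 (21.2% of all tested miRNAs were), and Huh-7 lay above MV-3 for miR-92a-3p (45110 and 42562 against 33575 and 35421). The miR-30, miR-26 and miR-15 and miR-16 lists had no separating member either, and 2 of 5, 1 of 2 and 0 of 3 were called higher, with 0 called lower. Over all tested miRNAs, 21.2% were called higher and 33.0% lower in ES-2 and MV-3. In the miR-143 and miR-145 list, 3 tested arms were called lower in ES-2 and MV-3 (33.0% of all tested miRNAs were) and 0 separated. miR-143-3p, a smooth muscle and fibroblast miRNA, was low in ES-2 (9.02 and 25.2) and Huh-7 (244 and 258) and high in MV-3 (1057 and 1018) and A-549 (2506 and 2617). miR-10a-5p was lowest in Huh-7 (5.63 and 7.51) and did not separate, with A-549 (5508 and 6040) between ES-2 (11859 and 12254) and MV-3 (2126 and 2020.0). Over all 528 tested miRNAs, the median log2 fold change of the pair contrast was -0.30.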

How the data were processed

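Small RNA libraries of 4 human cancer cell lines, 2 biological replicates each, were analysed. Per the submitters' processing notes and the study's methods, the authors trimmed reads with cutadapt 1.14, mapped them to hg38 with Bowtie2 2.3.2, counted mature miRNAs of miRBase 21 with featureCounts 1.5.3 and normalised with edgeR 3.18.1. The deposited values are a signal, TMM-normalised CPM per miRNA entry. How reads that map to several hairpins were treated is not given in the sources used here. Whole reads were recovered from 100% of values (tolerance 0.001 reads) and used for edgeR and DESeq2.

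Entries sharing a name were summed. Of 2588 names, 528 passed filterByExpr. limma 3.58.1 (trend, R 4.3.3) was fitted to log2(normalised CPM + 1) of 8 libraries, 1 term per line, with 4 residual degrees of freedom, and p-values were adjusted over all 528 (Benjamini-Hochberg, threshold 0.01). edgeR 4.0.16 and DESeq2 1.42.0 were alternatives. The authors' TMM factors assume that most miRNAs do not differ, which can move small differences. Reads without molecular identifiers are not independent molecules, so the 3-read floor covers counting error only. Hairpin positions and sequences came from RefSeq (GRCh38.p14) and hosts from GENCODE 44.

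miRNAs named in the text were, in each direction, the most abundant separating miRNAs, those with the largest gap among abundant ones, and those nearest to the limit, plus members of the family and marker lists. Others are said to be chosen after their values were seen. The separating miRNAs and all lists were chosen with earlier results of these data known. Alternatives were other scalings, filters, pseudocounts, thresholds, tools, a replicate block and leaving out each library. Scripts were tested on simulated data.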

Additional observations from a re-analysis of the deposited data

How the results depend on the processing

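The line, not the library, limits these comparisons, since each pair holds 2 lines. The number of miRNAs called in the pair contrast was 286, and it fell to 0 with line means as units and to 7 with the line as a random block. It stayed between 237 and 287 with RLE factors (287), library size only (287), a pseudocount of 0.1 (237), no filter (252), a filter at 10 CPM (276) and the highest entry per name (285). With DESeq2 it was 244 and with edgeR 220. Of the 124 separating miRNAs among those tested, 50 remained when the lowest library of the higher pair had to be at least 2 times the highest of the lower pair as read, and 44 when the lower pair was set to 3 reads where it held fewer, a choice made after seeing the data. Leaving out each replicate in turn gave 36 to 72 fewer pair calls than 286, with the largest loss without Huh-7 replicate 2, and 36 to 43 calls in all 4 cross-line comparisons. It gave 130 to 149 separating miRNAs among those tested, against 124, as fewer libraries have to be separated. Replicate numbers were shared between lines but deviations of same-numbered libraries correlated at -0.05 to 0.23, so the numbers do not pair the samples, and a fit with the replicate block gave 280 calls and 48 in all 4 comparisons. With library size only, the calls in all 4 cross-line comparisons were 35 higher and 24 lower, against 26 and 24. Of 1764 values for 98 named miRNAs under 18 settings, 1638 kept their direction and their side of the threshold, 18 passed it newly, 108 no longer passed it (72 of them with line means as units) and 0 reversed. The fit with the line as a random block was not among these 18 settings. Depth limited the scarce miRNAs, as 15 of the 139 separating names had too few reads to be tested.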
